A study of Mus musculus with 30 samples.

Results

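Interferon-linked cell death genes were followed across whole B16 tumors that secreted a type I interferon (IFN-I) or did not. Its members were taken by gene symbol and are Casp1, Casp4, Casp8, Mlkl, Tnfsf10, Fas, Fasl and Xaf1. Of these 8 genes, 6 had a row among the 39676 genes counted, and all 6 passed the filter on low values (a mean count of 10 over the tumors) that left 15926 genes for testing. Casp1 and Fas had no row here and were not analysed here.

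RNA-seq was performed on 30 tumors, 10 each of the types B16-GFP, B16-IFNA4 and B16-IFNA9, harvested at day 8. B16 is a mouse melanoma cell line, and the cells were grown under the skin of female C57BL/6 mice, typically 8 to 12 weeks of age. All 3 lines carried herpes simplex virus glycoprotein B with CFP and firefly luciferase with puromycin resistance, and a further vector gave eGFP in every line. That vector held Ifna4 in B16-IFNA4 cells, Ifna9 in B16-IFNA9 cells and no interferon in B16-GFP cells, and a retroviral MSCV promoter drove it. The lines were obtained by sorting GFP+CFP+ cells and by puromycin selection, and whether any was a single clone is not given in the sources used here. Interferon was thus produced by tumor cells from the time of inoculation, while the stroma and leukocytes of the tumor came from the host. The comparison asks how the cell death genes differ between tumors with either IFN-α subtype and controls, and between the subtypes.

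IFN-I subtypes bind a shared receptor, and the signal ends at interferon response elements near the start of interferon-stimulated genes (ISGs). Many ISGs belong to cell death pathways. Tnfsf10 encodes TRAIL and Fasl encodes Fas ligand, which are death ligands carried mainly by NK cells, T cells and other leukocytes and engage receptors on a target cell. Casp8 encodes the initiator caspase recruited to those receptors, which starts apoptosis and also restrains necroptosis. Mlkl encodes the pseudokinase that permeabilizes the plasma membrane in necroptosis. Casp4 encodes caspase-11, the sensor of cytosolic lipopolysaccharide that triggers pyroptosis, and Xaf1 encodes a factor that antagonizes XIAP, an inhibitor of caspases.

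The labels held on the transgenes. Ifna4 had 81 to 188 counts in each B16-IFNA4 tumor and 0 in all others, and Ifna9 had 55 to 148 counts in each B16-IFNA9 tumor and 0 in all others. Total counts ran from 14598517 to 19788383 per tumor. Of 7 melanocyte markers, Tyr, Tyrp1 and Mitf had a row and were abundant in every tumor, with Tyrp1 at 1702 CPM or more. B16-GFP tumor 7 stood apart, with the lowest total, the lowest TMM scaling factor (0.768 against up to 1.10) and the lowest leukocyte markers of all 30 tumors, so fold changes of the 6 genes are also given without it. The labels gave no batch, date or lane.

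Levels are given as CPM, counts scaled to library size with the TMM factor. Both IFN-I–secreting tumor types had more RNA of all 6 genes than B16-GFP tumors. In B16-IFNA4 tumors, 6 of 6 were higher at an adjusted p under 0.05 by edgeR's quasi-likelihood test, where 31.3% of all genes tested were called higher and 65.4% were called in either direction. In B16-IFNA9 tumors, 6 of 6 were again higher, against a background of 26.9% (55.7% in either direction). Both comparisons share the same 10 control tumors. For 5 of the 6 genes, all but Casp8, every IFN-I–secreting tumor lay above every B16-GFP tumor, which was true of 8.5% of all genes for B16-IFNA4 and 4.44% for B16-IFNA9 tumors. The reverse, every such tumor below every control, was true of 10.0% and 3.35% of all genes and of none of the 6. The median log2 fold change of the 6 genes was 2.42 in B16-IFNA4 tumors and 1.81 in B16-IFNA9 tumors, with medians over all genes tested of 0.01 and -0.00. When tested against a change of 2-fold, 5 genes still passed in B16-IFNA4 tumors (background 5.02%) and 4 in B16-IFNA9 tumors (background 3.38%), where Casp8 and Mlkl did not. With library totals in place of TMM, the split over all genes in B16-IFNA9 against B16-GFP tumors moved from 4281 higher and 4595 lower to 5051 higher and 3610 lower, and the 6 calls stood. In RNA of whole tumors, more cells of a type and more RNA per cell cannot be told apart.

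**Figure D1:**
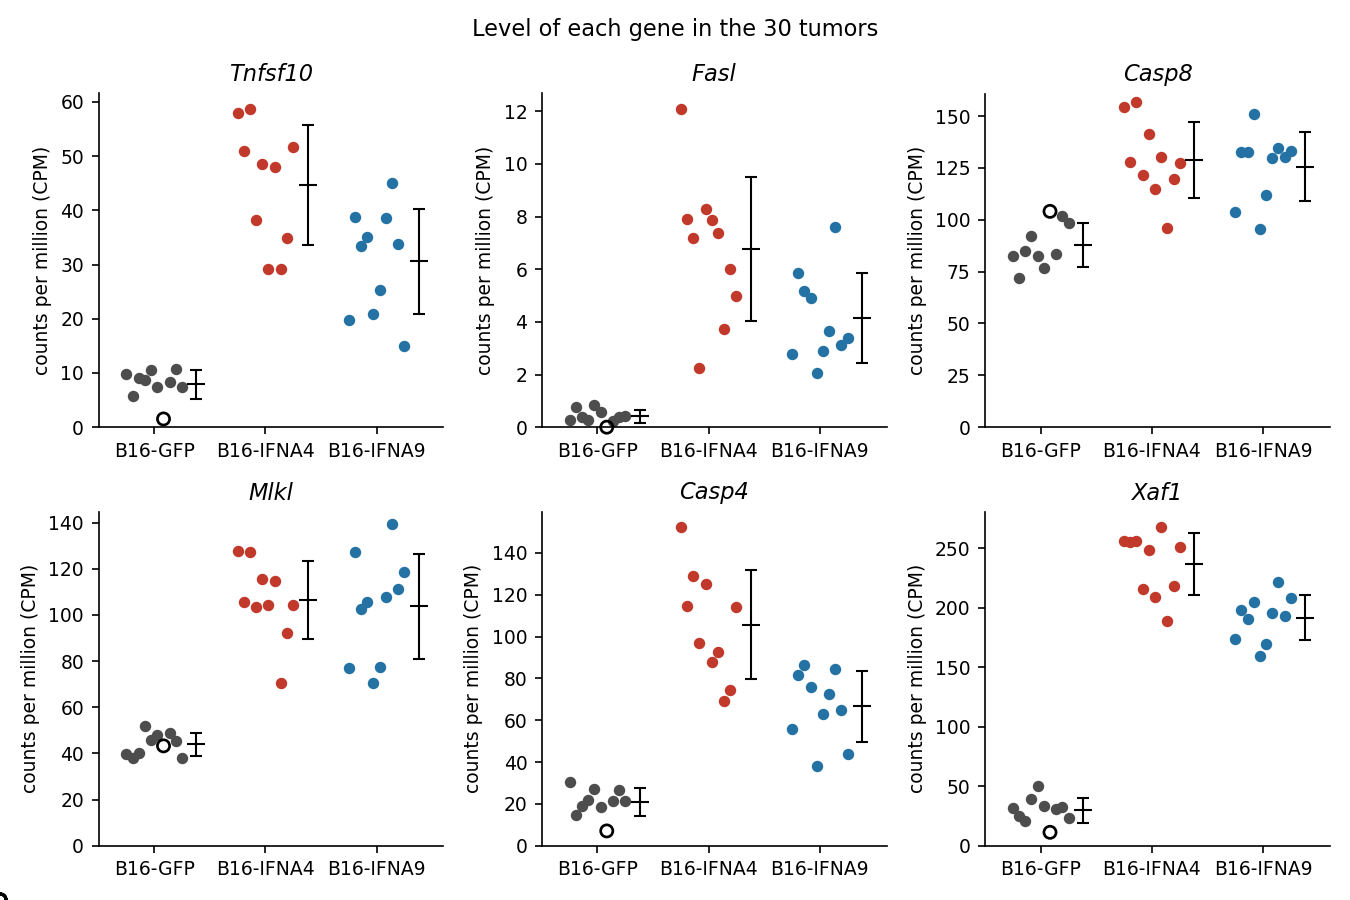
Level in TMM-normalized CPM of the 6 genes in each of the 30 tumors, by tumor type, with the mean and SD (n = 10) as a bar to the right of each group and B16-GFP tumor 7 as an open circle. Tumors with IFNA4 or IFNA9 lay above all B16-GFP tumors for 5 genes, and for Casp8 the types overlapped.

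Since the 6 genes moved together, their promoters were read, and 5 of them are printed to show where interferon-type motifs lie and, in Mlkl, where none was found. RefSeq starts on GRCm38.p6 were found for all 6 genes, with a second start for Casp4. In the 250 bases before each start, the strict interferon-stimulated response element core GAAANNGAAA had no match on either strand in any of them, while 2.98% of all 32851 promoters in the table held these letters. A shorter IRF-type core, AANNGAAA, which is contained in the strict element, was searched on both strands after these promoters had been read. It was found for Tnfsf10, Xaf1, Casp4 and Casp8 and not for Mlkl or Fasl, and it is common, with 21.3% of all promoters and 23.9% of all genes in the table holding it. The last 150 bases before the start are shown 5′ to 3′ on the strand of the gene, with the short core in capitals. They lie at chr11:72301479-72301628 (plus strand) for Xaf1, chr3:27316927-27317076 (plus) for Tnfsf10, chr9:5308710-5308859 (plus) for the second start of Casp4, chr1:58802352-58802501 (plus) for Casp8, and chr8:111338206-111338355 (minus) for Mlkl, which is given for contrast.
Xaf1: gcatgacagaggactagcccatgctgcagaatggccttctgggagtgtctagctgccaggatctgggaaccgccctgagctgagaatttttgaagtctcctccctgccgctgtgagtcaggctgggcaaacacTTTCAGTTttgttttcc
Tnfsf10: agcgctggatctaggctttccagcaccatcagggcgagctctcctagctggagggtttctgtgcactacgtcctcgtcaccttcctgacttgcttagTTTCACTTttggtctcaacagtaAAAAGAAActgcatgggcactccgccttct
Casp4: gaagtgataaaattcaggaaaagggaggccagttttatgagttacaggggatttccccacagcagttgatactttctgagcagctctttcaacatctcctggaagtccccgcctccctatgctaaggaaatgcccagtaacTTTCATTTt
Casp8: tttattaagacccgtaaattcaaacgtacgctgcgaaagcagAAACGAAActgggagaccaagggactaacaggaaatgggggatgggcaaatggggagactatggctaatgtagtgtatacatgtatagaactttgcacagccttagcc
Mlkl: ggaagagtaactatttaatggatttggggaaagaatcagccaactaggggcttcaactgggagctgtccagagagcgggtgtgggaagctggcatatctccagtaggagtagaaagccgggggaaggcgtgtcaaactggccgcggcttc
In Xaf1 the core began 17 bases before the start. In Tnfsf10 there were 2, at 53 and 30 bases before it. In Casp4 the core shown lay 9 bases before the start, and in Casp8 it lay at 108 bases. Further matches outside the printed bases lay at 197 bases for this Casp4 start, 186 bases for the other and 171 bases for Casp8. A match is a description of the letters and shows no binding.

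Of the death ligands, Tnfsf10 (ENSMUSG00000039304.11, chr3:27317028-27342427 of GRCm38, plus strand) ranged from 1.52 to 10.8 CPM in B16-GFP tumors with a median of 8.56. It ranged from 29.1 to 58.7 CPM (median 48.3) in B16-IFNA4 tumors and from 15.0 to 45.0 CPM (median 33.6) in B16-IFNA9 tumors. Neither IFN-I–secreting type overlapped with the controls. The means were 7.92 ± 2.72, 44.7 ± 11.1 and 30.6 ± 9.77 CPM (SD, n = 10). The rise was 5.62-fold in B16-IFNA4 tumors (log2 fold change 2.49, SE 0.23, edgeR adjusted p = 1.23e-10). In B16-IFNA9 tumors it was 3.84-fold (log2 fold change 1.94, SE 0.22, edgeR adjusted p = 3.17e-08).

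Fasl (ENSMUSG00000000817.10, chr1:161780689-161788495, minus strand) was the scarcest of the 6 genes and had the highest fold change of them. B16-GFP tumors held 0 to 15 counts of it (median 6), or 0 to 0.824 CPM with a median of 0.383. B16-IFNA4 tumors held 2.25 to 12.1 CPM (median 7.28), and B16-IFNA9 tumors held 2.04 to 7.60 CPM (median 3.51). No tumor of either type fell into the range of the controls, although the control values rest on few reads. Means were 0.412 ± 0.247, 6.77 ± 2.72 and 4.14 ± 1.7 CPM (SD, n = 10). Fasl rose 15.8-fold in B16-IFNA4 tumors (log2 fold change 3.98, SE 0.33, edgeR adjusted p = 1.82e-11) and 9.64-fold in B16-IFNA9 tumors (log2 fold change 3.27, SE 0.33, edgeR adjusted p = 2.03e-09).

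Casp8 (ENSMUSG00000026029.14, chr1:58795374-58847503, plus strand), the apical caspase of the ligands above, moved least. It lay between 72.0 and 104 CPM (median 84.3) in B16-GFP tumors, between 95.8 and 157 CPM (median 128) in B16-IFNA4 tumors and between 95.4 and 151 CPM (median 131) in B16-IFNA9 tumors. It was the only one of the 6 whose tumors overlapped with the controls, with 9 of 10 B16-IFNA4 and 8 of 10 B16-IFNA9 tumors above the highest B16-GFP tumor. The means of 87.9 ± 10.8, 129 ± 18.3 and 126 ± 16.7 CPM (SD, n = 10) gave a rise of 1.47-fold in B16-IFNA4 tumors (log2 fold change 0.55, SE 0.09, edgeR adjusted p = 3.40e-06). In B16-IFNA9 tumors the rise was 1.43-fold (log2 fold change 0.52, SE 0.09, edgeR adjusted p = 1.75e-05). Of the stretches of 50 bases in its exons, 4.37% also occur in the predicted gene Gm20257, so part of its reads may have been assigned elsewhere. The printed Casp8 promoter belongs to a RefSeq start inside the span of the GENCODE gene. The RefSeq starts used for Tnfsf10 and Casp4 also lie inside the GENCODE spans, so that the Tnfsf10 core at 30 bases and the Casp4 core at 9 bases fall within the annotated genes.

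Mlkl (ENSMUSG00000012519.14, chr8:111311797-111338177, minus strand), the executor of necroptosis, ranged from 37.8 to 52.1 CPM (median 44.3) in B16-GFP tumors. Its range was 70.7 to 128 CPM (median 105) in B16-IFNA4 tumors and 70.4 to 140 CPM (median 107) in B16-IFNA9 tumors. The IFN-I–secreting types covered nearly the same range, and both lay clear of the controls. Means were 43.9 ± 4.91, 107 ± 16.8 and 104 ± 22.8 CPM (SD, n = 10). Mlkl rose 2.43-fold in B16-IFNA4 tumors (log2 fold change 1.28, SE 0.11, edgeR adjusted p = 5.31e-11) and 2.36-fold in B16-IFNA9 tumors (log2 fold change 1.24, SE 0.11, edgeR adjusted p = 2.22e-10). The printed stretch of its promoter holds neither motif.

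Casp4 (ENSMUSG00000033538.13, chr9:5308828-5336783, plus strand), the pyroptosis gene of the group, ranged from 7.05 to 30.3 CPM (median 21.4) in B16-GFP tumors. It ranged from 69.3 to 152 CPM (median 106) in B16-IFNA4 tumors and from 37.9 to 86.6 CPM (median 68.7) in B16-IFNA9 tumors. The lowest tumor of each IFN-I–secreting type was above the highest control. The means of 20.8 ± 6.65, 106 ± 26.1 and 66.7 ± 16.9 CPM (SD, n = 10) gave a rise of 5.07-fold in B16-IFNA4 tumors (log2 fold change 2.34, SE 0.19, edgeR adjusted p = 1.29e-11). In B16-IFNA9 tumors the rise was 3.20-fold (log2 fold change 1.68, SE 0.19, edgeR adjusted p = 1.83e-08).

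Xaf1 (ENSMUSG00000040483.15, chr11:72301629-72313733, plus strand), the antagonist of XIAP, had the lowest adjusted p of the 6 genes in both comparisons with controls. Its level was 11.2 to 50.2 CPM (median 31.2) in B16-GFP tumors, 189 to 268 CPM (median 250) in B16-IFNA4 tumors and 160 to 222 CPM (median 194) in B16-IFNA9 tumors. The distance between the highest control and the lowest IFN-I–secreting tumor was wider than the whole range of the controls. Means were 29.8 ± 10.7, 237 ± 26.3 and 192 ± 19.0 CPM (SD, n = 10). Xaf1 rose 7.94-fold in B16-IFNA4 tumors (log2 fold change 2.99, SE 0.16, edgeR adjusted p = 8.50e-16) and 6.42-fold in B16-IFNA9 tumors (log2 fold change 2.68, SE 0.16, edgeR adjusted p = 2.43e-14). Without B16-GFP tumor 7, the lowest control for Casp4, Tnfsf10, Fasl and Xaf1, these 4 genes were still called higher, with log2 fold changes of 2.26, 2.39, 3.88 and 2.91 in B16-IFNA4 and 1.58, 1.83, 3.15 and 2.6 in B16-IFNA9 tumors. Casp8 and Mlkl were also called without it, at 0.60 and 1.3 in B16-IFNA4 and 0.55 and 1.25 in B16-IFNA9 tumors.

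The subtypes were then compared with each other. All 6 log2 fold changes of B16-IFNA9 against B16-IFNA4 tumors were below 0, but only Casp4 passed the test, where 7.25% of all genes were called lower, 10.5% higher and 17.8% in either direction. Casp4 fell by 0.66 on the log2 scale (SE 0.18, 95% confidence interval -1.04 to -0.29, edgeR adjusted p = 0.0108), and 5 of 10 B16-IFNA9 tumors lay below the lowest B16-IFNA4 tumor. For none of the 6 were the subtypes fully separate, which held for 0.741% of all genes with B16-IFNA9 lower and 2.08% with B16-IFNA9 higher. The difference was -0.71 for Fasl (95% confidence interval -1.27 to -0.15, edgeR adjusted p = 0.0707), -0.55 for Tnfsf10 (-0.98 to -0.11, edgeR adjusted p = 0.0722) and -0.31 for Xaf1 (-0.60 to -0.01, edgeR adjusted p = 0.147). These intervals do not include 0, but after adjustment over all genes none of the 3 passed, and by DESeq2 Fasl and Tnfsf10 did along with Casp4. Without B16-GFP tumor 7, all 3 were called along with Casp4, at adjusted p of 0.0308, 0.0136 and 0.0324, so that 4 of the 6 were then lower, while the share of all genes called lower in that fit rose to 11.0%. Leaving out B16-IFNA9 tumor 8 added Fasl and Tnfsf10 to Casp4 (3 called), and leaving out B16-IFNA4 tumor 4 added Fasl (2 called). For Casp8 and Mlkl the difference was -0.04 each, with 95% confidence intervals of -0.22 to 0.14 and -0.26 to 0.19 (edgeR adjusted p = 0.809 and 0.848). The median of the 6 differences was -0.43, with a median over all genes of -0.01.

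**Figure D2:**
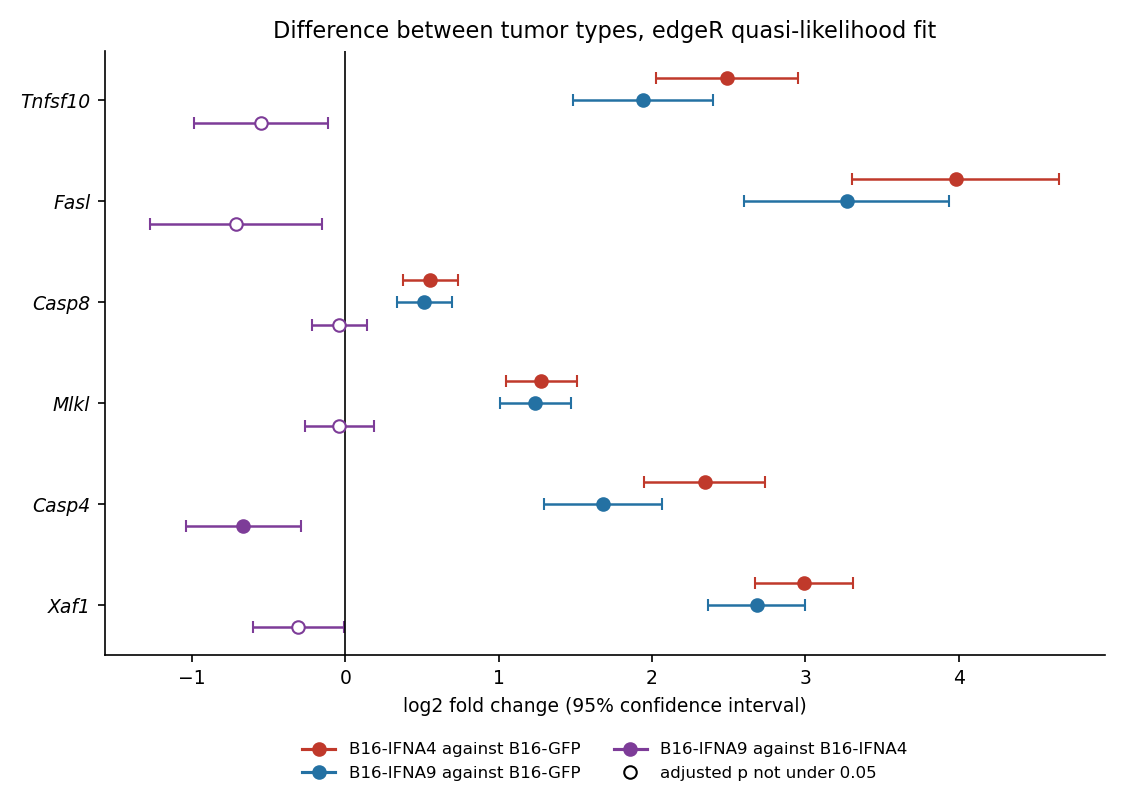
Log2 fold change (x axis) of each gene in the 3 comparisons, with 95% confidence intervals from the edgeR fit of 30 tumors; open points did not pass an adjusted p of 0.05. The rises against B16-GFP tumors run from 0.52 to 3.98, and between the subtypes only Casp4 passed, at -0.66.

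Levels were next divided by the union exon length of each gene (GENCODE M21), as CPM per kilobase, to compare genes within a tumor. In B16-GFP tumors the order of mean levels was Casp8 (30.4), Mlkl (19.1), Xaf1 (6.35), Casp4 (5.60), Tnfsf10 (1.5) and Fasl (0.213). Neighbours in the order were compared by a two-sided exact permutation test of sign flips within tumors on log2 values, with Benjamini-Hochberg adjustment over 15 comparisons. All neighbours differed there (adjusted p = 0.00293, from the smallest p that 10 tumors allow) except Xaf1 and Casp4 (adjusted p = 0.144). In B16-IFNA4 tumors the order was Xaf1 (50.5), Mlkl (46.3), Casp8 (44.6), Casp4 (28.5), Tnfsf10 (8.50) and Fasl (3.49). The level of Xaf1 exceeded that of Mlkl in 7 of 10 tumors (adjusted p = 0.0320, exact permutation test), whereas Mlkl and Casp8 did not differ beyond their spread (adjusted p = 0.126). In B16-IFNA9 tumors Mlkl (45.0) and Casp8 (43.4) did not differ either (adjusted p = 0.617), Xaf1 (40.9) was below Casp8 in 7 of 10 tumors (adjusted p = 0.0342, exact permutation test), and Casp4 (18.0), Tnfsf10 (5.81) and Fasl (2.14) followed. Xaf1, the third in order in control tumors, thus stood within a narrow band with Casp8 and Mlkl in tumors that secreted IFN-I, while both death ligands kept the last places in all 3 types. Within that band, Xaf1 exceeded Mlkl by a mean log2 difference of 0.14 in B16-IFNA4 tumors. Casp8 exceeded Xaf1 by 0.08 in B16-IFNA9 tumors. The test took each exon length as fixed, so its p covers the spread between tumors and no error in length.

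**Figure D3:**
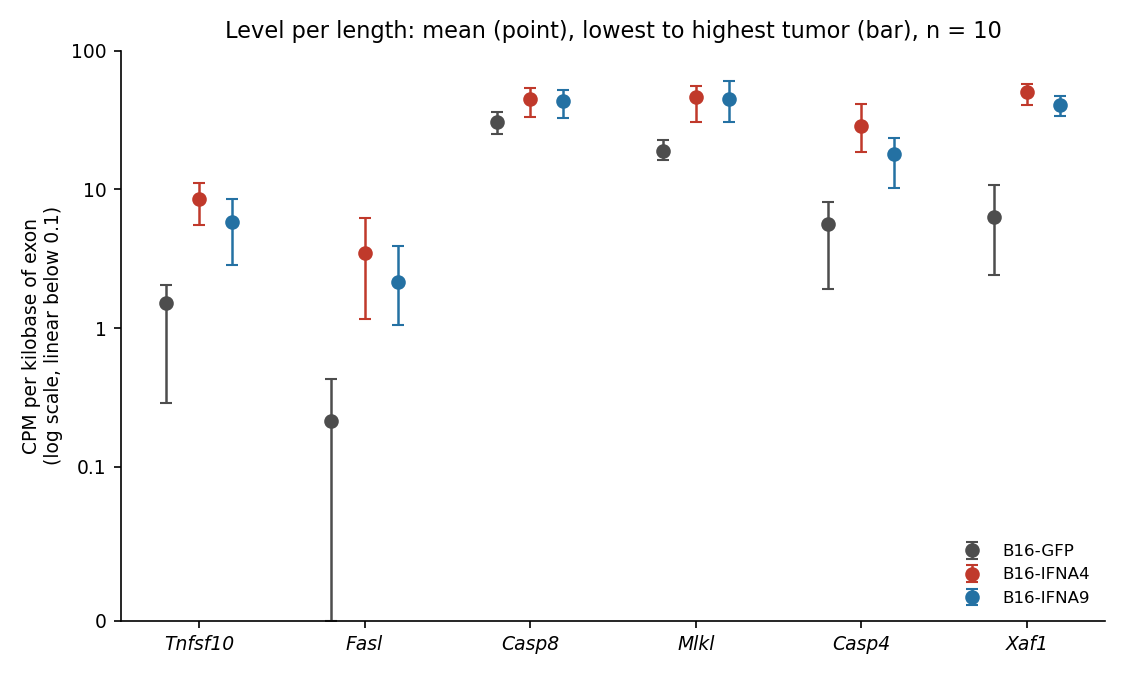
Level per length in CPM per kilobase of exon (y axis, log scale, linear below 0.1) of the 6 genes by tumor type; points are means and bars run from the lowest to the highest of 10 tumors. Xaf1 moved from 6.35 in B16-GFP tumors to 50.5 and 40.9, next to Casp8 and Mlkl, and Fasl stayed lowest.

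Tumors of a type differed in a similar way for several of the genes. B16-IFNA4 tumor 8 was the lowest of its type for 5 of the 6 genes (Fasl the exception), and B16-IFNA9 tumor 5 was the lowest of its type for 5 (Tnfsf10 the exception). B16-IFNA9 tumor 8 was the highest of its type for Mlkl, Tnfsf10, Fasl and Xaf1, and B16-IFNA4 tumor 1 was the highest for 3. B16-GFP tumor 7 was the lowest control for Casp4, Tnfsf10, Fasl and Xaf1 but the highest for Casp8. The biological coefficient of variation within types ran from 0.145 for Casp8, at percentile 16 of the genes tested, to 0.403 for Fasl, at percentile 88.9, around a median of 0.230 over all genes. Over 30 tumors with each type centred, Pearson's r between the log2 CPM of the 15 pairs of these genes ran from 0.07 (Casp8 with Xaf1) to 0.92 (Casp4 with Tnfsf10), with a median of 0.46. Without B16-GFP tumor 7 the range was 0.37 to 0.86 with a median of 0.52. These values describe pairs measured in the same libraries.

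The markers of leukocytes moved with the same samples. Of 6 leukocyte markers, 5 had a row (Ptprc, Cd52, Cd53, Coro1a and Laptm5), and 5 of 5 were higher in B16-IFNA4 and in B16-IFNA9 tumors than in controls (all genes: 31.3% and 26.9%). Their summed level was 158 to 529 CPM in B16-GFP, 853 to 1761 CPM in B16-IFNA4 and 610 to 1181 CPM in B16-IFNA9 tumors. The sum of 6 NK cell markers was 3.66 to 26.6, 93.8 to 318 and 54.3 to 202 CPM in the same order, and that of 7 T cell markers was 3.30 to 58.0, 57.2 to 126 and 21.4 to 90.8 CPM. The summed level of leukocyte and NK cell markers thus did not overlap between controls and either IFN-I–secreting type. The sum of 9 macrophage and monocyte markers overlapped between types, at 518 to 2203, 1750 to 3078 and 1473 to 2546 CPM. Of these 9, 4 were higher and 2 lower in B16-IFNA4 tumors than in controls (all genes: 31.3% and 34.1%). In B16-IFNA9 tumors 4 were higher and 0 lower (all genes: 26.9% and 28.9%). Their median log2 fold changes were -0.28 and -0.02. Ptprc, the pan-leukocyte gene CD45, differed by a log2 fold change of 2.65 in B16-IFNA4 and 2.14 in B16-IFNA9 tumors, and by -0.52 between the subtypes (edgeR adjusted p = 0.105). The 3 melanocyte markers were lower in both IFN-I–secreting types (all genes: 34.1% and 28.9%). Against the controls, 4 of 6 dendritic cell markers were higher in B16-IFNA4 and 5 in B16-IFNA9 tumors, and 1 of 4 neutrophil markers was higher and 2 lower in each. Of 5 endothelial markers, 1 was higher and 3 lower in B16-IFNA4 tumors and 3 were lower in B16-IFNA9 tumors (mean log2 CPM of the list 5.63 in controls, 5.45 and 4.78). In addition, 1 of 4 fibroblast markers was higher in each type, 2 of 4 keratinocyte markers were higher in B16-IFNA4 tumors, and 3 of 6 skeletal muscle markers were lower in B16-IFNA9 tumors. Between the subtypes, where Casp4 was called, other cell types moved too (all genes: 7.25% lower and 10.5% higher). Of 6 skeletal muscle markers, 5 were lower in B16-IFNA9 than in B16-IFNA4 tumors (mean log2 CPM of the list 9.03 and 10.1), as were 3 of 5 endothelial (4.78 and 5.45), 2 of 6 NK cell and 1 of 5 leukocyte markers, while 2 of 3 melanocyte markers were higher (9.70 and 9.22). Also lower were 2 of 4 neutrophil markers (mean log2 CPM 1.77 and 2.36) and 1 of 4 fibroblast markers, with 2 lower and 1 higher of 9 macrophage and monocyte markers and 1 in each direction of 6 dendritic cell markers. Of 7 T cell markers edgeR called 0, with 1 at an unadjusted p under 0.05 and 1 by DESeq2, and of 4 keratinocyte markers each of these counts was 0. The part of these cells in the differences of the 6 genes was not tested.

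Within each type, the log2 CPM of the 6 genes was compared with a leukocyte score, the mean log2 CPM of the 5 markers, and Fasl also with the NK and T cell scores. Permutation tests used 100000 resamples, and p was adjusted over these 24 relations. In B16-IFNA4 tumors all 6 genes correlated with the leukocyte score, from r = 0.73 (Fasl, permutation adjusted p = 0.0302) to 0.82 (Mlkl and Xaf1, 0.0132 and 0.0111). By rank, Mlkl, Tnfsf10 and Xaf1 passed (rho = 0.76 each, permutation adjusted p = 0.0399), and Casp4, Casp8 and Fasl did not (rho = 0.70, 0.73 and 0.60). Leaving out the 2 tumors farthest from the median, tumors 1 and 8, lowered r to between 0.34 and 0.69. In B16-IFNA9 tumors Casp4 (r = 0.94, rho = 0.89, permutation adjusted p = 0.0012), Fasl (r = 0.85, rho = 0.87, 0.0108) and Tnfsf10 (r = 0.82, rho = 0.83, 0.0132) passed, by rank as well (0.0130, 0.0130 and 0.0187), and kept r of 0.85, 0.84 and 0.70 without the 2 farthest tumors. Casp8, Mlkl and Xaf1 did not pass there (r = 0.66, 0.54 and 0.54, and 0.66, 0.58 and 0.62 without the 2 farthest tumors). In B16-GFP tumors Tnfsf10 followed the score (r = 0.92, rho = 0.83, permutation adjusted p = 0.00344 for r and 0.0187 for rho, r = 0.67 without tumors 2 and 7), whereas the relations of Casp4 (r = 0.84, rho = 0.52) and Xaf1 (r = 0.72, rho = 0.26) fell to 0.09 and 0.06 without those tumors and thus rest on them. Casp8, Mlkl and Fasl did not pass in these controls (r = -0.24, 0.27 and 0.54, with rho = -0.03 and r = -0.05 without those tumors for Fasl). Each r is over 10 tumors that share a library with the score.

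**Figure D4:**
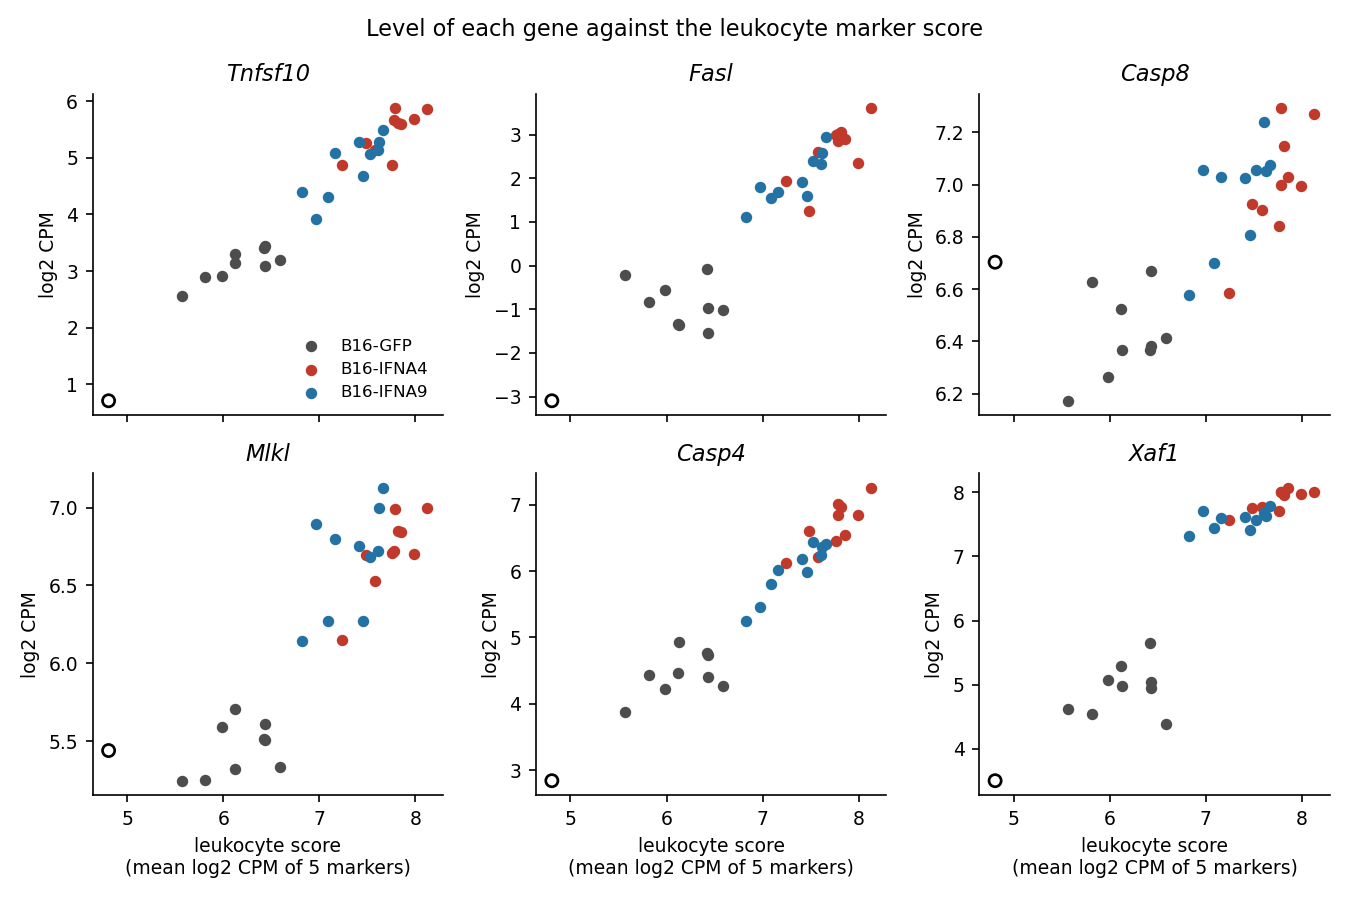
Log2 CPM of each gene (y axis) against the leukocyte score (x axis, mean log2 CPM of 5 markers) in the 30 tumors, colored by type, with B16-GFP tumor 7 as an open circle. Casp4 and Tnfsf10 rise with the score within B16-IFNA9 tumors, at r = 0.94 and 0.82, while Casp8 and Mlkl in the B16-GFP tumors have r of only -0.24 and 0.27.

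For Fasl the NK cell score was also read, since NK cells carry Fas ligand. In B16-IFNA9 tumors, r with the NK cell score was 0.92 (rho = 0.95, permutation adjusted p = 0.0012 and 0.00288, r = 0.87 without the 2 farthest tumors). In B16-IFNA4 tumors it was 0.90 (rho = 0.88, permutation adjusted p = 0.00414 and 0.0130, r = 0.92 without 2 tumors). Among B16-GFP tumors r was 0.82 (rho = 0.45), but 0.06 without tumors 5 and 7, and Fasl counts were few in all controls. With the T cell score, r was 0.62 in B16-IFNA4 and 0.51 in B16-IFNA9 tumors, and neither passed (permutation adjusted p = 0.0733 and 0.149). In B16-GFP tumors r with that score was 0.80 (rho = 0.36, permutation adjusted p = 0.0285 and 0.375). It fell to -0.07 without tumors 5 and 7 and thus rests on them.

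The genes tested whose type-centred log2 CPM was most like that of each gene over 30 tumors differed from member to member. For Fasl they were Klra8, an NK cell receptor that is also among the 6 NK cell markers (r = 0.92), and Lax1 (0.85). Xaf1 was most like Mx1 (0.96), Gm20559 (0.94) and Mx2 (0.94), of which Mx1 and Mx2 are antiviral ISGs. Casp4 was most like Gm5431 (0.95), Ptprc (0.94) and Ifi214 (0.94), and Tnfsf10 was most like Casp4 (0.92), Tbc1d9 (0.92) and Gbp9 (0.92). For Casp8 and Mlkl the first of the nearest genes over the 30 tumors was less close than for the other 4 genes. These were Gm13212 (0.89), Zfp992 (0.89) and Znf41-ps (0.89) for Casp8 and Arel1 (0.80), Herc6 (0.78) and Zfp287 (0.78) for Mlkl. Without B16-GFP tumor 7, Klra8, Arel1 and Mx1 still ranked first for their genes, whereas Gm5431 took place 2 for Casp4 (r = 0.91), Gm13212 place 3 for Casp8 (0.89) and Casp4 place 3 for Tnfsf10 (0.86). Klra8 then had r of 0.88 with Fasl, below that of Gm13212 with Casp8, so that Casp8 no longer had a less close first gene than Fasl. These are descriptions without a test, over libraries that share depth and composition.

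The other genes of the same pathways were read from 6 lists. Of the inflammasome and pyroptosis list, 17 of 21 genes had a row, and 14 were higher and 2 lower in B16-IFNA4 tumors, with 13 higher and 2 lower in B16-IFNA9 tumors (all genes: 31.3% higher and 34.1% lower, then 26.9% and 28.9%). The median log2 fold changes were 1.23 and 1.34. Il18bp, the secreted antagonist of IL-18, rose by log2 fold changes of 2.44 and 3.05, and between the subtypes it was called higher in B16-IFNA9 tumors (0.60, edgeR adjusted p = 0.0268). That call was lost without B16-IFNA4 tumor 8 (edgeR adjusted p = 0.0516), B16-IFNA9 tumor 2 (0.0634) or B16-IFNA9 tumor 8 (0.0707). Aim2, a sensor of cytosolic DNA, rose by 2.44 and 1.96. Ninj1, which ruptures the membrane late in lytic death, was lower by log2 fold changes of -1.05 and -0.77, and Gsdme, a gasdermin cut by caspase-3, by -0.84 and -0.63. Il1rn, the antagonist of the IL-1 receptor, was lower in B16-IFNA9 than in B16-IFNA4 tumors (-0.79, edgeR adjusted p = 0.00424). Of the list, 1 gene was called higher and 3 lower between the subtypes (all genes: 10.5% and 7.25%). The 4 calls became 7 without B16-GFP tumor 7 (all genes: 23.8% in either direction) and 2 without B16-IFNA4 tumor 1.

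Of the necroptosis list, 11 of 13 genes had a row, with 6 higher and 1 lower in B16-IFNA4 tumors (all genes: 31.3% and 34.1%) and 6 higher and 2 lower in B16-IFNA9 tumors (26.9% and 28.9%). Zbp1, the nucleic acid sensor that can engage necroptosis upstream of MLKL, had the largest rise of the list in both types. It went from 17.2 to 80.7 CPM in B16-GFP tumors to 326 to 580 CPM in B16-IFNA4 and 282 to 693 CPM in B16-IFNA9 tumors, with no overlap. Its log2 fold changes were 3.19 (edgeR adjusted p = 7.46e-14) and 3.12 (edgeR adjusted p = 3.70e-13), and like that of Mlkl the difference between the subtypes was small (-0.06, edgeR adjusted p = 0.857). Tnfaip3, which encodes the ubiquitin-editing inhibitor A20, and Ripk1, the kinase at the branch point, were each called higher in both types. Tnfaip3 had the second largest rise of the list in B16-IFNA4 tumors (1.10), and Ripk1 had it in B16-IFNA9 tumors (0.62). Pgam5 was lower in both types (-0.44 and -0.49), and Tradd was lower in B16-IFNA9 tumors (-0.39). No gene of this list passed between the subtypes by edgeR, 3 had an unadjusted p under 0.05, DESeq2 called 1, and 3 were called without B16-GFP tumor 7.

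Of the death receptors, ligands and their adaptors, 14 of 19 genes had a row. In B16-IFNA4 tumors 9 were higher and 1 lower (all genes: 31.3% and 34.1%), and in B16-IFNA9 tumors 7 were higher and 2 lower (26.9% and 28.9%). Of the ligands in the list, Ltb, Tnf and Lta rose in both types, with log2 fold changes of 3.03 and 2.25 for Ltb and 2.63 and 1.68 for Tnf in B16-IFNA4 and B16-IFNA9 tumors, and of 2.50 and 2.66 for Lta, from 0 to 8 counts in the controls. Tnfsf12, the remaining ligand of the list and named after its values were seen, rose by 0.57 in B16-IFNA4 tumors (edgeR adjusted p = 0.00572) and did not pass in B16-IFNA9 tumors (0.27, edgeR adjusted p = 0.198). Between the subtypes, Tnf (-0.95, edgeR adjusted p = 0.000879) and Ltb (-0.78, edgeR adjusted p = 0.0241) were lower in B16-IFNA9 tumors. In all, 5 of the 14 genes were lower there and none was higher (all genes: 7.25% and 10.5%), and 3 were called without B16-IFNA4 tumor 10. The call of Ltb was lost without B16-IFNA4 tumor 7 or 10 or B16-IFNA9 tumor 9 or 10 (edgeR adjusted p from 0.0513 to 0.0527). Fadd, the adaptor that joins death receptors to caspase-8, was lower by -0.58 and -0.41, in the opposite direction to Casp8. Tnfrsf22, a decoy receptor for TRAIL, was called lower in B16-IFNA9 tumors (-0.27), but not without B16-GFP tumor 10 (edgeR adjusted p = 0.0553) or with library totals (0.133).

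Of 13 further caspases and apoptosome genes, 12 had a row, and 2 were higher and 7 lower in B16-IFNA4 tumors (all genes: 31.3% and 34.1%), with 3 higher and 5 lower in B16-IFNA9 tumors (26.9% and 28.9%). The median log2 fold changes were -0.30 and -0.01, with medians over all genes of 0.01 and -0.00. Cycs, which encodes cytochrome c, was lower by -1.13 and -0.91 (-0.89 and -0.68 without B16-GFP tumor 7), and Endog, a mitochondrial nuclease, by -1.44 in both types. Dffb, the caspase-activated DNase, was higher by 0.66 and 0.52, Casp9 by 0.24 in B16-IFNA4 tumors and Apaf1 by 0.25 in B16-IFNA9 tumors, which was not called without B16-IFNA9 tumor 10 (edgeR adjusted p = 0.0505). Casp2 (0.31) and Casp6 (0.30) were the 2 genes called between the subtypes, both higher in B16-IFNA9 tumors (all genes: 10.5% higher).

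All 8 inhibitors of apoptosis with a row, of 9 listed, passed in both comparisons with controls, with 7 higher and 1 lower in each (all genes: 31.3% and 34.1%, then 26.9% and 28.9%). The list includes the NAIP genes, which are sensors of bacterial proteins, and Naip6 (2.17 and 1.66) and Naip5 (2.06 and 1.56) had its largest rises. The gene that was lower was Birc5, which encodes survivin and is expressed in dividing cells. It went from 65.7 to 173 CPM in B16-GFP tumors to 20.6 to 32.4 CPM in B16-IFNA4 and 32.9 to 79.5 CPM in B16-IFNA9 tumors (log2 fold changes -1.82 and -0.95), and B16-IFNA9 tumors exceeded B16-IFNA4 tumors by 0.87 (edgeR adjusted p = 9.97e-05). Naip5 was the other of the 2 genes of the list called between the subtypes (all genes: 17.8% in either direction). It was lower by -0.50 in B16-IFNA9 tumors (edgeR adjusted p = 0.0494), and this call was lost in 21 of 30 leave-one-out fits. Without B16-GFP tumor 7, 5 genes of the list were called (all genes: 23.8%), and the lowest count in a leave-one-out fit was 1.

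Of 21 BCL-2 family genes, 18 were tested, with 9 higher and 4 lower in each IFN-I–secreting type (all genes: 31.3% and 34.1% in B16-IFNA4, 26.9% and 28.9% in B16-IFNA9 tumors). The largest rises were those of the near-identical antiapoptotic genes Bcl2a1b (1.63) and Bcl2a1a (1.62) in B16-IFNA4 tumors and Bcl2a1a (1.29) and Bcl2a1d (1.24) in B16-IFNA9 tumors, between which the counting can split reads. Bax, a pore former of the mitochondrial membrane, was lower by -0.65 in B16-IFNA4 tumors and Bok by -0.75 in B16-IFNA9 tumors, and Bad, a BH3-only gene, was lower by -0.54 and -0.62. Between the subtypes, 3 genes were lower in B16-IFNA9 tumors (all genes: 7.25%), and 5 were called without B16-GFP tumor 7 (all genes: 23.8% in either direction). Among the 3 were the BH3-only gene Bcl2l11 (-0.41) and Bcl2a1b (-0.48). The call of Bcl2a1b was lost without B16-IFNA4 tumor 10 (edgeR adjusted p = 0.0508). The lists overlap, since the NAIP genes stand in 2 of them.

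**Figure D5:**
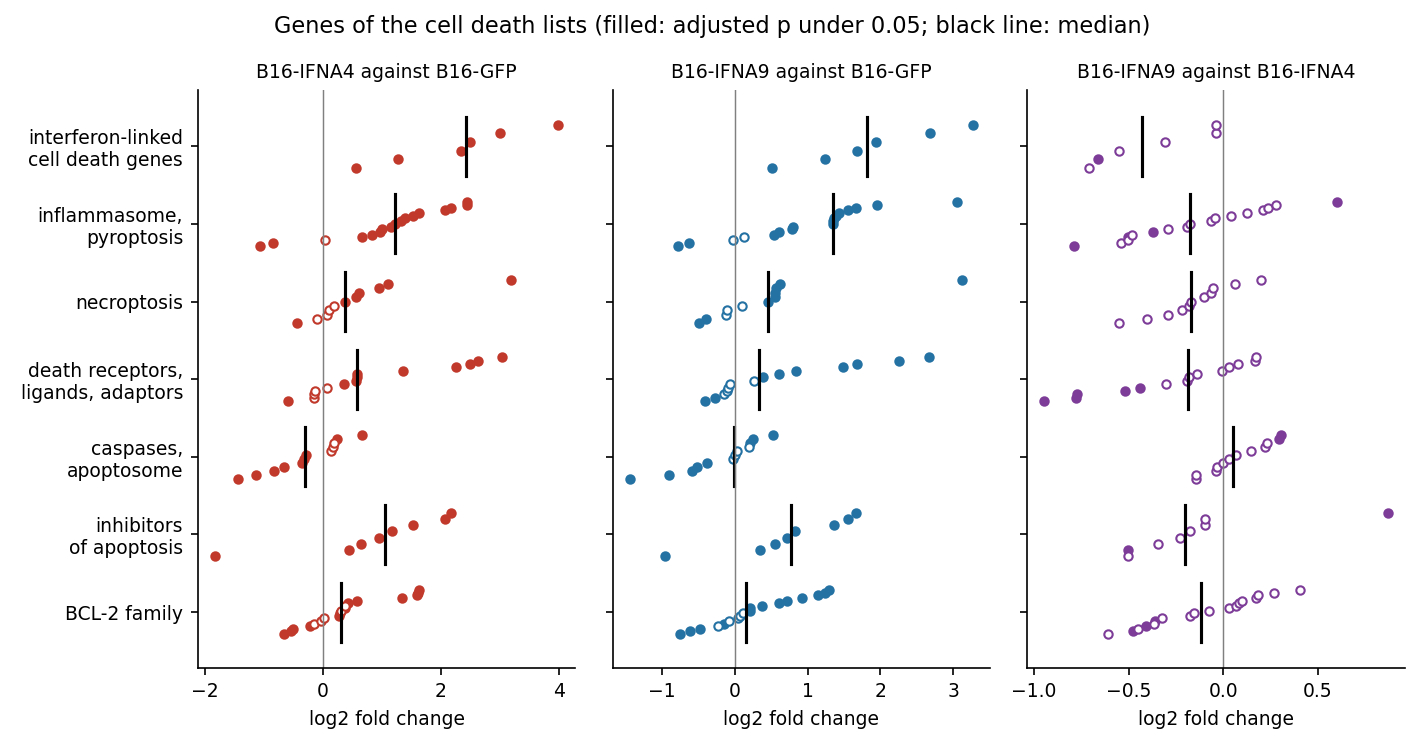
Log2 fold change (x axis) of each tested gene of the 6 interferon-linked cell death genes and of the 6 pathway lists in the 3 comparisons; filled points passed an adjusted p of 0.05, and black lines are list medians. Against B16-GFP tumors the 6 genes have medians of 2.42 and 1.81, and the caspases and apoptosome genes have medians of -0.30 and -0.01.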

How the data were processed

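Whole-tumor RNA was extracted with TRIzol and RNeasy columns and made into stranded mRNA libraries, read from a single end over 50 bases. The authors checked reads with FastQC 0.11.3, aligned with HISAT2 2.0.4 and counted per gene with summarizeOverlaps. They deposited raw counts. The submitters' processing notes name the build mm10 and the study's methods mm11. Annotation release, overlap mode and strand setting are not given in the sources used here. GENCODE M21 (GRCm38) gave symbols and coordinates for 39495 of 39676 identifiers.

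A minimum mean count of 10 was applied, and all 30 tumors entered a single quasi-likelihood fit in edgeR 4.0.16 (R 4.3.3, TMM) with Benjamini-Hochberg adjustment over 15926 genes. SE was derived from log2 fold change and F. Prior count for log2 CPM was 2, and 0.1 CPM was added before logs of levels per length. Scripts were tested on simulated data. Alternatives were other scalings, filters, samples and thresholds, DESeq2 1.42.0, a replicate block and leave-one-out fits. Figures were drawn in matplotlib 3.10.9.

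Genes and lists were chosen with earlier results of these data known. Named were members with a row, up to 2 called genes with the largest rise and 2 with the largest fall per list and comparison, and the 3 genes most like each member, of which 1 is not reported here. Tumors labelled as biological replicates were the unit of replication.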

Additional observations from a re-analysis of the deposited data

Results flagged for a closer look

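A single control tumor, B16-GFP tumor 7, lay far below the other 9 B16-GFP tumors for 3 of the 6 genes. Its log2 CPM was 2.84 for Casp4, where the other controls ran from 3.88 to 4.92. For Tnfsf10 it was 0.71, where the others ran from 2.56 to 3.44, and it rested on 17 counts. For Fasl it was -3.10 with 0 counts, where the others ran from -1.54 to -0.09. In each case the gap to the nearest control exceeded Dixon's 95% critical value for 10 samples on the log2 scale. On the CPM scale none of the 3 did, with gaps of 0.325, 0.460 and 0.274 of the range, and the log2 value of Fasl at 0 counts is set by the prior count. Of 18 groups of 10 tumors examined, chance alone would single out about 0.9. The same tumor had the lowest leukocyte score of all 30 (4.81), the lowest total count and the lowest TMM factor. Its Mlkl level was inside the range of the other controls (43.3 CPM against 37.8 to 52.1), and its Casp8 level was the highest of the controls (104 CPM). Among the controls it also had the highest melanocyte score (mean log2 CPM 11.5) and the lowest fibroblast (7.52), endothelial (4.74) and keratinocyte (7.30) scores. The part of this composition, of depth or of scaling in these values was not tested.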

How the results depend on the processing

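Each of the 6 genes kept its call and direction against B16-GFP tumors under the other scalings, filters, DESeq2, the fit of only the 20 tumors compared and all 30 leave-one-out fits (6 called in each). Against a change of 2-fold, 5 and 4 were called. Library totals moved the median of all genes by 0.10 in B16-IFNA9 against B16-GFP tumors. Between the subtypes the count depended on the setting. It was 1 in the edgeR fit, 4 in the fit of only the 20 tumors compared, 3 with DESeq2, 0 against a change of 2-fold (0 also at an unadjusted p under 0.05) and 4 without B16-GFP tumor 7. Leave-one-out counts ran from 1 to 4. Without tumor 7, 3801 of 15960 genes were called in this comparison, against 2833 of 15926 with it. The fit of the 20 tumors called 4338, and DESeq2 called 3190. Against a change of 2-fold, 1252, 649 and 51 genes were called in B16-IFNA4 against B16-GFP, B16-IFNA9 against B16-GFP and B16-IFNA9 against B16-IFNA4 tumors, where the test against no change called 10412, 8876 and 2833. The same test left, in B16-IFNA4 and B16-IFNA9 against B16-GFP tumors, 6 and 4 calls in the inflammasome list (16 and 15 against no change), 1 and 1 in necroptosis (7 and 8), 4 and 4 in death receptors (10 and 9), 0 and 0 in caspases (9 and 8; 1 and 1 at an unadjusted p under 0.05), 4 and 2 in inhibitors of apoptosis (8 and 8) and 4 and 0 in the BCL-2 family (13 and 13; 4 and 2 at an unadjusted p). Between the subtypes it called 0 in each of these lists, also at an unadjusted p. Over the leave-one-out fits the log2 fold change between the subtypes ran from -0.080 to 0.025 for Casp8 and from -0.095 to 0.036 for Mlkl, and both were positive without B16-IFNA9 tumor 5. The cause was not tested.

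Replicate numbers were not taken to pair the tumors. Over 30 pairs of same-numbered tumors, the correlation of deviations ran from -0.27 to 0.30, and 4 exceeded 0.1. Differently numbered tumors were not compared, so these values cannot decide whether the numbers pair the tumors. With the replicate number as a block, 6, 6 and 1 of the 6 genes were called in the 3 comparisons, the same counts as without it. Of the inflammasome and pyroptosis list, the 4 genes called between the subtypes became 1 with the block, 2 with library totals and 2 with no filter, and the call of Il18bp was among those lost with the block (adjusted p = 0.0816). With 0 to 15 counts per control tumor, depth limits the fold change of Fasl.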
